A study of Mus musculus with 11 samples.

Results

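Far distal acetylated regions were examined in the mouse pre-T line Beko after 24 h of drug treatment. These are stretches of chromatin carrying H3K27ac (histone H3 acetylated at lysine 27) that lie more than 50 kb from the transcription start site (TSS) to which the authors assigned them, do not overlap an RBPJ-bound region and are under 5000 bp wide. The rule took 10007 of the 56342 regions in the authors' deposited table, or 17.8%. Of the 10318 regions over 50 kb from a TSS, it left out 67 that overlapped RBPJ and 244 that were 5000 bp or wider. The H3K27ac libraries came from cells given apicidin, an HDAC3 inhibitor per the labels (0.01 mg/ml as labelled), from cells given the gamma-secretase inhibitor (GSI) DAPT (10 mg/ml as labelled), and from cells given DMSO, with 2 libraries in each group. RBPJ was mapped in 2 further libraries from DMSO-treated cells, and 3 inputs were sequenced. All libraries come from 1 cell line, and the labels do not say whether replicates were separate cultures. The deposited table holds 1 fitted value per region and treatment and none per library, so each value below is a log2 fold change against DMSO with the standard error (SE) of the authors' DESeq2 fit, and the depth behind each library is unknown.

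H3K27ac marks active promoters and enhancers. Enhancers can sit far from the gene they act on, often in introns of other genes or in gene-poor DNA, and in developing T cells many genes of the lineage are controlled this way. Histone deacetylases such as HDAC3, the catalytic subunit of the NCoR corepressor complex, remove acetyl groups, and apicidin blocks them. Gamma-secretase cuts the Notch receptor and so releases its intracellular part, which joins RBPJ on DNA. Without that part, RBPJ can recruit corepressors. The symbol given with each region is the one the authors assigned by distance, and no target gene was measured.

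The far distal regions lay a median of 87190 bp from their TSS, with the middle 50% between 63966 and 135944 bp. Their median width was 526 bp. Their median base mean, the authors' normalised read count averaged over libraries, was 49.6 and ranged to 3112. They carried 1864 gene symbols, of which 589 had a single region and 283 had 10 or more. The 10 symbols with the most regions included noncoding RNA genes in gene-poor DNA. 2610307P16Rik, which lies between Prl5a1 and Sox4 in the RefSeq gene order, had 134 far distal regions. Gm20740, between Myc and Gsdmc, had 91. A430107P09Rik, which RefSeq names Trav3-3, a V segment of the T cell receptor alpha locus, had 59, and 4930465M20Rik, next to Bcl11b, had 48. The E protein gene Tcf12 had 65, and Etv6, a transcriptional repressor of the Ets family, had 48. Among T-lineage markers, 9 of 10 had an acetylated region over their own TSS (Bcl11b, Cd2, Cd3e, Cd3g, Lck, Ptcra, Rag1, Tcf7 and Thy1), with base means between 419 and 8020. Such a region was present for 2 of 9 B-lineage markers, 1 of 9 myeloid, 1 of 9 erythroid or megakaryocyte, 0 of 9 neuronal and 1 of 10 fibroblast or epithelial markers.

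At the edge of the rule, the values in the authors' deposited table were as follows. Just inside the distance limit, a region of Prkar1b at 50002 bp had a log2 fold change of -0.84 with apicidin and -0.19 with GSI, and one of Tox at 50006 bp had 0.84 and 0.51. Just outside it, at 49990 bp, a region of 3300002I08Rik had -0.72 and -0.22, and one of Smad3 had 2.51 and 1.14. Just inside the width limit, a 4999 bp region of 1700121N20Rik had 0.51 with apicidin and -0.21 with GSI, and just outside it a 5000 bp region of Sall3 had 0.04 and 0.15.

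With apicidin, far distal H3K27ac changed in both directions in nearly equal numbers. At an adjusted p under 0.05 (the authors' DESeq2 Wald test, Benjamini-Hochberg over all regions), 1191 of the 10007 regions were higher (11.9%) and 1158 were lower (11.6%). Over all regions of the table, 9.69% were higher and 14.1% were lower. Regions called higher had a median log2 fold change of 0.94 and those called lower a median of -0.85, while the median over all far distal regions was 0.02. A change of at least 1 on the log2 scale was reached by 533 of the higher and 422 of the lower regions. The split depends on where zero is set. The median apicidin value was 0.004 over all regions of the table. It was -0.10 over the regions with a base mean at or above the median of all regions. After the value of -0.10 was subtracted (centring), 1460 far distal regions were higher and 897 lower. Increases were then 61.9% of the calls, against 50.7% as deposited. The regions covering a TSS (6274 regions under the same limits on width and RBPJ) were called lower in 40.1% and higher in 5.90%, with a median of -0.26. They were also stronger, with a median base mean of 409 against 49.6 for far distal regions. In the eighth decile of base mean over all regions, 29.0% of them were lower and 4.69% higher. Far distal regions of that decile were lower in 22.3% and higher in 25.1%. Regions 10 to 50 kb from a TSS (17815 regions) were called higher in 8.85% and lower in 11.2%.

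GSI gave calls in both directions as well. For GSI, an adjusted p stands in the authors' deposited table only at a base mean of about 72.1 or more, so 3825 far distal regions were tested and 6182 were not. Of those tested, 359 were higher (9.39%) and 385 were lower (10.1%), against 6.62% and 7.17% of all tested regions. The median log2 fold change was 0.61 among the higher and -0.64 among the lower regions. A change of 1 or more on the log2 scale was reached by 38 of the higher and 42 of the lower regions. These sizes cannot be set directly against those of apicidin, which was tested down to the weakest regions. In the sixth decile of base mean, the 146 regions called higher with apicidin had a median of 0.99 and the 17 with GSI 0.98. Only 655 of the 1131 regions of that decile were tested for GSI. In the eighth decile the medians were 0.79 and 0.68. A median among called regions depends on the threshold, so these values do not compare the effects of the treatments. Regions 10 to 50 kb from a TSS were called higher in 6.58% and lower in 7.84%, and regions covering a TSS in 3.89% and 3.33%.

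Calls were more frequent among stronger regions. Of the 1150 far distal regions in the lowest decile of base mean over all regions, 76 were called higher with apicidin (6.61%) and 11 lower (0.957%). All regions of that decile gave 4.77% and 0.692%. In the highest decile 90 of 352 were higher (25.6%) and 129 lower (36.6%), against 19.5% and 42.6% of all regions. The median apicidin value of all regions was 0.46 in the lowest decile and -0.15 in the highest. The shift with base mean is thus not particular to far distal regions. At matched strength the far distal regions still had more GSI calls than regions 10 to 50 kb away in each of the 5 deciles where GSI was tested. In the eighth decile (base mean 162 to 301) GSI raised 10.7% of far distal regions and lowered 9.48%, against 5.57% and 7.91% of regions at 10 to 50 kb. In the highest decile the shares were 22.7% higher and 21.6% lower among far distal regions, against 19.3% and 15.3%. With apicidin, increases were more frequent among far distal regions in 9 of the 10 deciles, the fourth being the exception, at 3.85% against 4.26% at 10 to 50 kb. These shares are descriptions, since neighbouring regions are not independent.

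**Figure D1:**
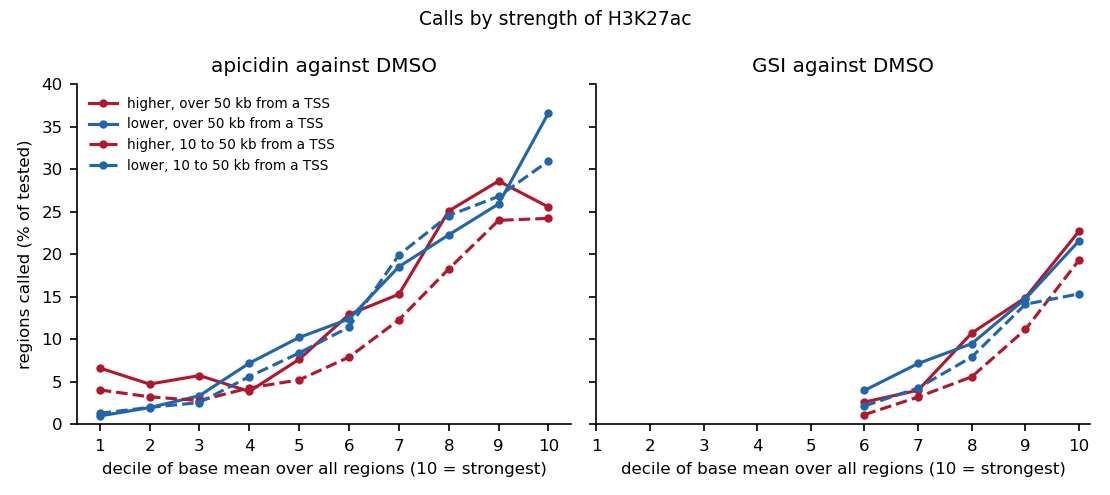
Share of tested regions called higher (red) or lower (blue) at an adjusted p under 0.05, by decile of base mean over all regions, for apicidin (left) and GSI (right); solid lines are regions over 50 kb from a TSS and dashed lines regions 10 to 50 kb from one. In the highest decile 22.7% of far distal regions were higher with GSI, against 19.3% at 10 to 50 kb.

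Increases were more frequent over 200 kb from a TSS than nearer to one. Among the 1324 regions over 200 kb from a TSS, 235 were higher with apicidin (17.7%) and 104 were lower (7.85%). The share higher was 17.9% at 200 to 500 kb and 16.0% of the 125 regions beyond 500 kb, while among the 3931 regions at 50 to 75 kb 10.1% were higher and 12.4% were lower. The regions over 200 kb had a median apicidin log2 fold change of 0.20, against -0.01 at 50 to 75 kb, and the median base means were 48.2 and 50.1. With GSI, 15.04% of the tested regions over 200 kb were higher and 7.32% were lower, against 7.57% and 9.96% at 50 to 75 kb. The regions over 200 kb away carry 246 symbols. Restricted to symbols with under 10 far distal regions, 19.2% of 380 regions over 200 kb were higher with apicidin and 11.8% were lower. No test of the difference between distance classes was made.

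**Figure D2:**
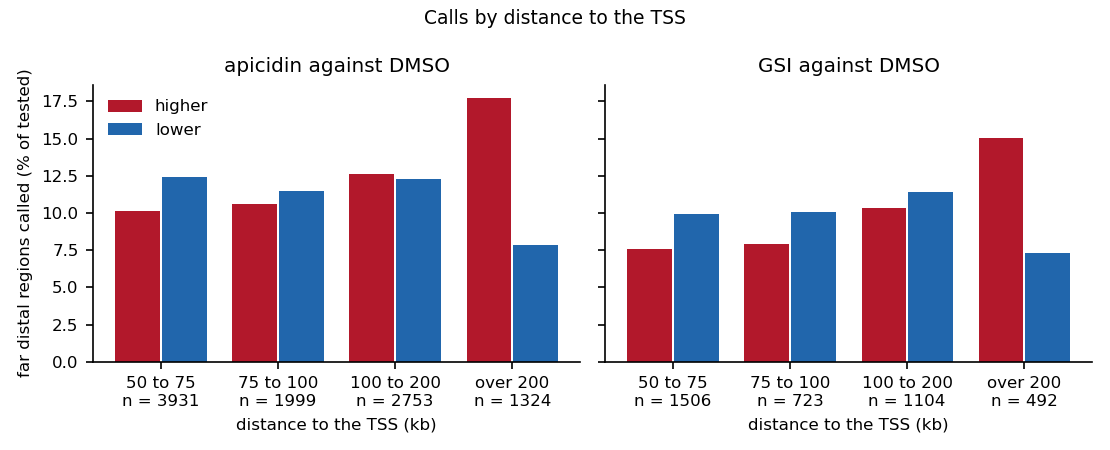
Share of far distal regions called higher (red) or lower (blue) by distance to the TSS in kb, with apicidin (left) and GSI (right); n is the number tested. Over 200 kb from a TSS 17.7% were higher and 7.85% lower with apicidin, and 15.04% and 7.32% with GSI.

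Although no far distal region overlapped RBPJ, loss of acetylation with GSI was most frequent next to acetylated regions that did. Distances from RBPJ below are gaps to the nearest edge of such an acetylated region. Distances to the RBPJ-bound sites themselves were not measured. Of 122 tested far distal regions within 10 kb of an RBPJ-overlapping acetylated region, 29 were lower with GSI (23.8%) and 2 were higher (1.64%). At 10 to 50 kb from RBPJ 31 of 195 were lower (15.9%) and 10 were higher (5.13%). At 50 to 250 kb 8.93% were lower and 7.89% higher, and beyond 250 kb, where 2430 of the tested regions lay, 9.42% were lower and 10.8% higher. The median GSI log2 fold change was -0.29 within 10 kb and 0.02 beyond 250 kb. Regions 10 to 50 kb from a TSS gave 18.7% lower and 2.28% higher within 10 kb of RBPJ. With apicidin, 38 of the 306 far distal regions within 10 kb of RBPJ were lower (12.4%) and 20 were higher (6.54%).

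**Figure D3:**
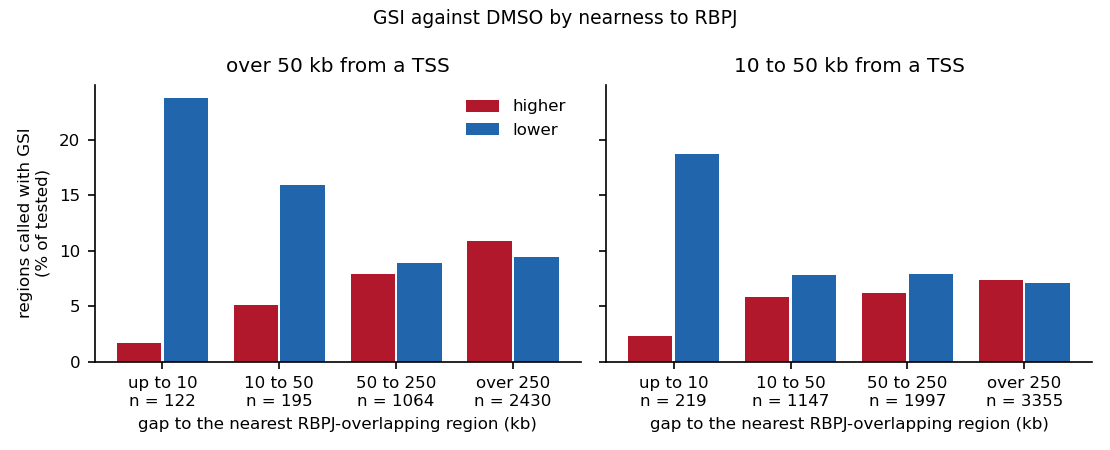
Share of tested regions called higher (red) or lower (blue) with GSI by the gap, edge to edge in kb, to the nearest RBPJ-overlapping acetylated region; regions over 50 kb from a TSS on the left and 10 to 50 kb from one on the right, n tested below each class. Within 10 kb 23.8% of far distal regions were lower, against 9.42% beyond 250 kb.

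The 29 regions lower with GSI within 10 kb of RBPJ carried 19 symbols and lay by 20 RBPJ-overlapping regions. For 25 of the 29 that neighbouring region was itself lower with GSI, for 3 it was untested and for 1 it was not called. It was also lower for 47 of the 91 far distal regions within 10 kb that were not called, and for 72 of all 122 tested. Several of them flank the same RBPJ-overlapping region, so they are not independent sites, and no test across the distance classes was made. Without all tested regions of Rapgef1, of which 4 were lower, 25 of 117 were lower (21.4%). The most negative was a region of Hey1, a Notch target encoding a transcriptional repressor, at chr3:8769125-8769526 (mm9). It lay 568 bp from an RBPJ-overlapping acetylated region. For this Hey1 region the authors' deposited table gives -1.72 ± 0.32 with GSI (adjusted p = 3.59e-06) and -0.96 ± 0.29 with apicidin (adjusted p = 0.00625). Near Lef1, a T-lineage transcription factor of the Tcf family, 3 such regions fell with GSI. The strongest, at chr3:130637254-130641103 with a base mean of 2053, had -0.54 ± 0.07 with GSI (adjusted p = 1.22e-12) and -0.34 ± 0.07 with apicidin in the authors' deposited table. Another region lay 4.84 kb from an RBPJ-overlapping acetylated region and 59.6 kb from the TSS of Rag2, which encodes a subunit of the V(D)J recombinase. This Rag2 region had -0.93 ± 0.11 with GSI (adjusted p = 6.79e-15) and -0.59 ± 0.10 with apicidin in the authors' deposited table. The 2 regions that were higher, of Stard3nl (0.32 ± 0.07) and Tgfb3 (0.35 ± 0.11) in the authors' deposited table, lay beside RBPJ-overlapping regions that were also higher with GSI.

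Far distal regions clustered along the chromosomes, and calls within a cluster usually pointed one way. Linking regions with gaps of at most 25 kb gave 605 stretches of 5 or more regions that held 6679 regions (66.7%). With apicidin, 317 stretches held 2 or more calls, and in 235 of them all calls had the same direction. With GSI, 102 stretches held 2 or more calls, of which 97 were in one direction. Regions of 1 stretch are neighbours and not replicates of each other.

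The stretches with the most increases included those by Maf and Fam210a. By Maf, which encodes a bZIP transcription factor used by differentiated T cells, 9 of 15 regions were higher with apicidin (median of those called 1.51) and 5 of 6 tested were higher with GSI (0.63), with none lower. The Maf stretch lay 3746 kb from the nearest RBPJ-overlapping region. By Fam210a 9 of 14 regions were higher with apicidin and 0 of 8 were called with GSI. The longest stretch, 140 regions over 334 kb next to Sox4, ranked among them only by its count. With apicidin 8 of its 140 regions were higher, a share below the 11.9% of all far distal regions. With GSI 0 of its 45 tested regions were called. With GSI, 5 of 6 tested regions were higher in a stretch of Cd200r3 and Ccdc80, 4 of 7 in one of 1500015O10Rik and Nck2, and 4 of 5 in one of Tomm20. Apicidin raised 5 of 9, 5 of 14 and 6 of 7 regions of these stretches.

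The largest block of losses lay by Ntn1, which encodes the secreted guidance protein netrin, and Stx8, a syntaxin of the endosome. Over 214 kb, 32 of 48 regions there were lower with apicidin and 0 were higher, with a median of -1.16 among those called. With GSI 1 of 22 tested regions there was higher and 0 were lower. In contrast, the stretch by Med27, a Mediator subunit gene, and Rapgef1, an exchange factor for Rap1, was lower with both drugs: 19 of 40 regions with apicidin and 10 of 17 tested with GSI. That stretch encloses 1 RBPJ-overlapping region. The stretches of Mrps28 and Gm20740, given below, and the 140-region stretch next to Sox4 also enclose 1 each. Apicidin also lowered 13 of 30 regions by Gse1, 13 of 24 by Hlcs and 12 of 24 by Fyn, a Src-family kinase gene, where 1 region was higher. Stretches led by GSI losses included Tbc1d22a (7 of 10 tested), Mrps28 (5 of 6 tested, 7 of 8 lower with apicidin), Gm20740 in the gene-poor DNA next to Myc (5 of 13 tested) and Prkcb, a protein kinase C gene (4 of 11 tested). In the Gm20740 stretch apicidin lowered 0 of 51 regions and raised 2. After centring, 29 regions of the Ntn1 stretch and 13 of the Med27 stretch were lower with apicidin.

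**Figure D4:**
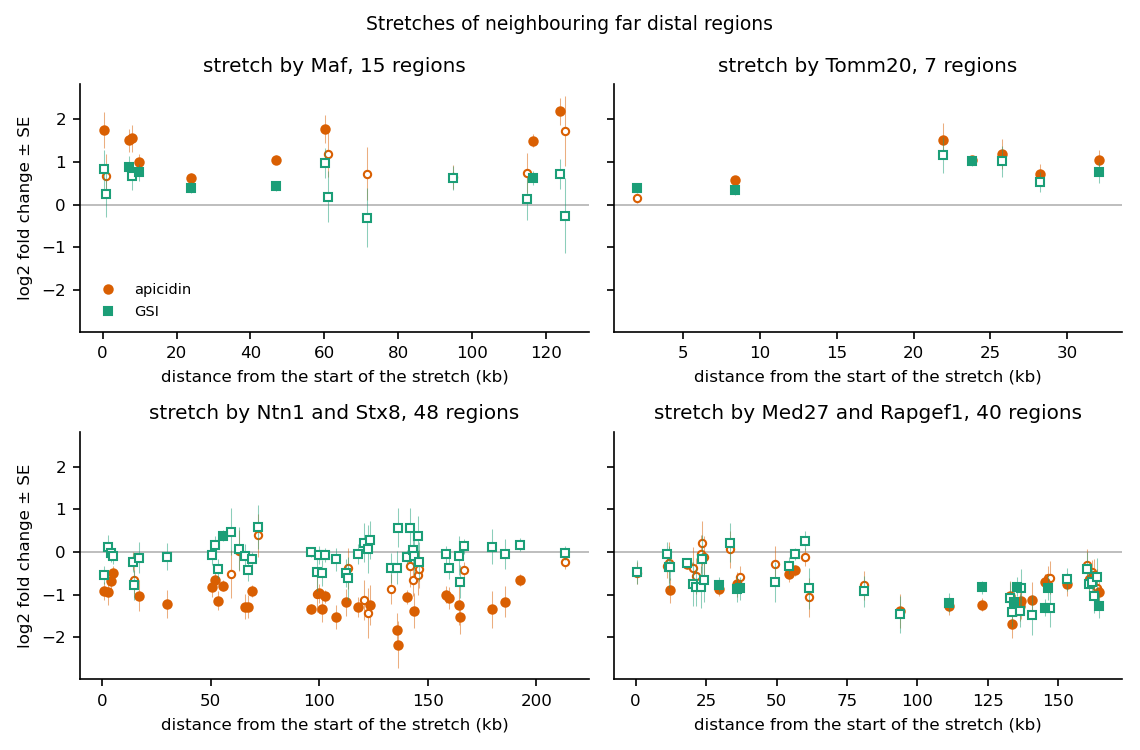
Log2 fold change ± SE of each region, from the authors' deposited table, along 4 stretches against the distance from the start of the stretch in kb; orange circles are apicidin and green squares GSI, filled where the adjusted p is under 0.05. By Ntn1 and Stx8, 32 of 48 regions were lower with apicidin and 1 was higher with GSI, and by Maf 9 of 15 were higher with apicidin.

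Among regions with a base mean at or above the median of those tested, the largest increase with apicidin lay in the T cell receptor alpha locus. The region of A430107P09Rik at chr14:54498708-54499555 (mm9), 213 kb from that TSS, had 3.18 ± 0.42 with apicidin (adjusted p = 1.18e-12) in the authors' deposited table, beside 2.63 ± 0.43 with GSI, untested. All 17 apicidin calls among the 59 regions of this symbol were increases. The nearby symbol Dad1 had 8 of 11 regions higher with apicidin and 3 of 4 tested higher with GSI. Next came a region of the noncoding gene 9530091C08Rik, beside Rora, which encodes a nuclear receptor of the T lineage: 3.04 ± 0.39 with apicidin in the authors' deposited table. All 11 regions of this symbol were higher with apicidin, and 4 of 5 tested were higher with GSI. Among GSI calls at a base mean of at least 180, the median of those tested, its region at chr9:68882620-68885174 had the largest increase. There the authors' deposited table gives 1.62 ± 0.22 with GSI (adjusted p = 9.62e-12) and 2.84 ± 0.21 with apicidin. Further apicidin increases of over 2 on the log2 scale belonged to Rplp1, Hmbox1, Ttc7b, 4921525O09Rik, 1810041L15Rik, Maf, Sp3 and Rftn1.

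The largest apicidin decreases were smaller in size. A region of Pdgfa, a growth factor gene, had -1.997 ± 0.221 with apicidin (adjusted p = 1.59e-17) and -1.04 ± 0.22 with GSI (adjusted p = 4.47e-05) in the authors' deposited table; 4 of 5 far distal regions of Pdgfa were lower with apicidin. One of Sik1, a salt-inducible kinase gene, had -1.95 ± 0.18 with apicidin (adjusted p = 1.33e-24) and -0.83 ± 0.18 with GSI in the authors' deposited table. Cep164 gave -2.003 ± 0.451, and Nphp4, Atrnl1, Adam6b, 4930430F21Rik, Chdh, Mkrn1 and Stx6 lay between -1.93 and -1.78 in the authors' deposited table. Of these, the region of Adam6b, which lies in the immunoglobulin heavy chain locus in mouse, was by far the strongest, with a base mean of 2231. The 4930430F21Rik region, between Ctnnd2 and Dap, had -1.85 ± 0.27 with apicidin and -3.02 ± 0.34 with GSI (adjusted p = 7.5e-17) in the authors' deposited table.

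With GSI, among regions at or above a base mean of 180, the median of those tested, increases after 9530091C08Rik were led by Gm1968, a noncoding gene between Opa1 and Hes1, at 1.55 ± 0.15 with GSI (adjusted p = 5.06e-24) in the authors' deposited table, where apicidin gave 1.34 ± 0.14. Kdr, a VEGF receptor gene, followed with 1.40 ± 0.17 (adjusted p = 3.52e-15) in the authors' deposited table. Gm17746, next to Id2, had 1.27 ± 0.19 with GSI and 1.77 ± 0.18 with apicidin in the authors' deposited table. Rbfox3, Dad1, Ank3, 2410131K14Rik, Antxr2 and Tasp1 followed, each above 1 on the log2 scale. Above the same base mean the decreases were led by Gse1, at -1.79 ± 0.19 with GSI (adjusted p = 5.64e-19) and -0.89 ± 0.17 with apicidin in the authors' deposited table. Zcchc2 gave -1.45 ± 0.12 with GSI (adjusted p = 3.67e-29) and -0.25 ± 0.11 with apicidin, which did not pass, in the authors' deposited table. At Zap70, the kinase recruited by the T cell receptor, both regions tested with GSI fell. The authors' deposited table gives -1.20 ± 0.26 for the stronger of them (adjusted p = 0.000106). With apicidin 0 of 11 were called, and their values lay between -0.73 and -0.17. Apicidin minus GSI did not pass at either GSI-tested region (normal test on the deposited values and errors, adjusted p = 0.245 and 0.240). Sfswap, with -1.27 ± 0.44 in the authors' deposited table (adjusted p = 0.0335), had the widest error of the 10.

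**Figure D5:**
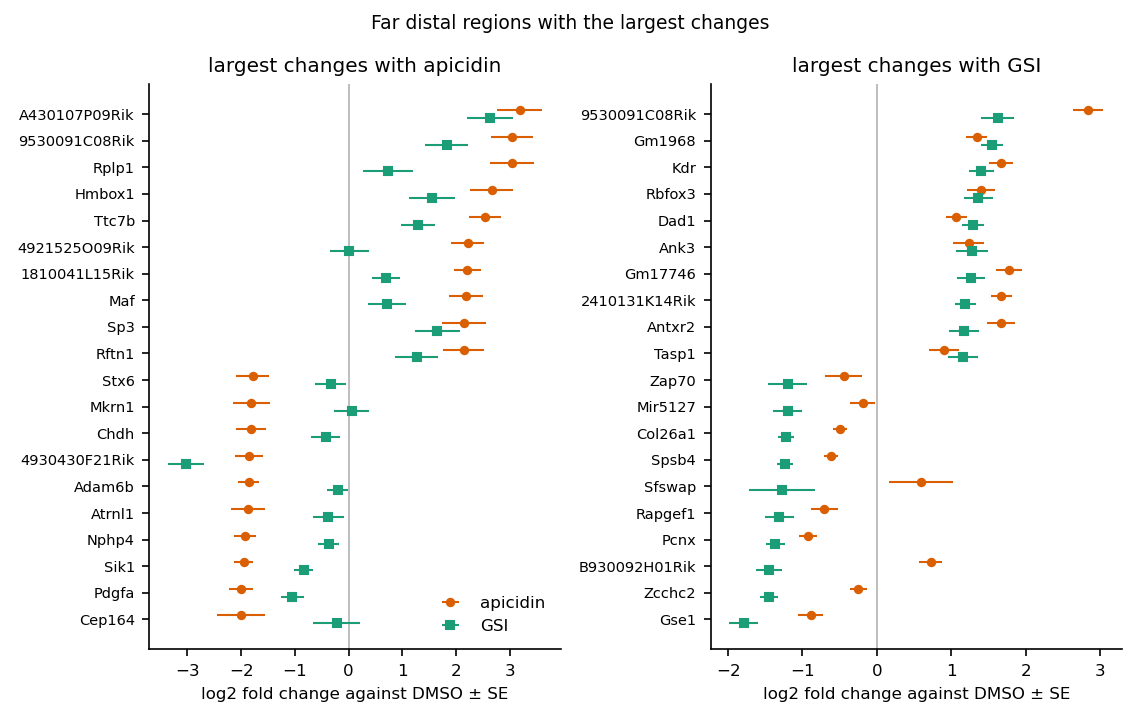
Log2 fold change against DMSO ± SE, from the authors' deposited table, with both treatments shown for each region (orange circles apicidin, green squares GSI). Shown are the 10 largest called increases and 10 largest called decreases with apicidin (left panel) and with GSI (right panel). Only regions with a base mean at or above the median of those tested for that treatment were taken, 1 per symbol. The A430107P09Rik region had 3.18 with apicidin and 2.63 with GSI, while B930092H01Rik had 0.72 and -1.45.

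The treatments share their DMSO libraries, so their values are given side by side and only their difference was tested. Apicidin minus GSI was positive past the threshold at 315 far distal regions (3.15%) and negative at 313 (3.13%), against 3.01% and 5.60% of all regions (normal test on the deposited values and errors, Benjamini-Hochberg adjusted). Opposite calls occurred in the interval between Uaca and Tle3, a Groucho-family corepressor gene. A region of B930092H01Rik at chr9:61072376-61074949 was higher with apicidin (0.72 ± 0.15) and lower with GSI (-1.45 ± 0.18) in the authors' deposited table, a difference of 2.17 ± 0.23 (adjusted p = 1.2e-17). A region of I730028E13Rik in the same interval had 1.11 ± 0.26 with apicidin and -1.13 ± 0.31 with GSI in the authors' deposited table, a difference of 2.23 ± 0.41 (adjusted p = 2.86e-06). In the other direction, a region of Trappc9 was lower with apicidin (-1.65 ± 0.19) and had 0.15 ± 0.18 with GSI in the authors' deposited table, a difference of -1.80 ± 0.26 (adjusted p = 1.15e-09).

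Of 21 T-lineage transcription factor genes with far distal regions, 13 had a region higher with apicidin and 8 a region lower. Of their 369 regions, 67 were higher with apicidin (18.2%) and 18 lower (4.88%), with a median of 0.34 beside 0.02 for all far distal regions. Over all far distal regions the shares were 11.9% and 11.6%. Of 128 tested with GSI, 14 were higher (10.9%) and 9 lower (7.03%), against 9.39% and 10.1% of all far distal regions tested, so the GSI shares lay near those of all. Runx1, a Runt-domain factor of blood development, had 12 of 23 regions higher and 0 lower with apicidin. Maf had 11 of 22 higher and 1 lower, Foxo1 9 of 18, Tox 9 of 33 and Gata3 8 of 26, with 0 lower in the last 3. The region of Runx1 with the smallest p had 1.09 ± 0.11 with apicidin (adjusted p = 1.99e-19) and 0.04 ± 0.12 with GSI in the authors' deposited table. The Tox region had 1.34 ± 0.14 with apicidin (adjusted p = 8.95e-19) and 0.50 ± 0.15 with GSI (adjusted p = 0.0117) in the authors' deposited table. Foxp1 ran the other way, with 6 of 29 lower and 2 higher, and its region of base mean 1820 had -0.84 ± 0.07 with apicidin (adjusted p = 4.18e-28) and 0.12 ± 0.07 with GSI in the authors' deposited table. Nfatc2, a calcium-regulated factor gene, had 5 of 10 lower. Tcf12 had 2 higher and 1 lower of 65.

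The growth and survival list held 112 regions in 14 genes, of which 29 were higher with apicidin (25.9%) and 3 lower (2.68%), and 8 of 53 tested were higher (15.1%) and 0 lower with GSI. Trib2, a pseudokinase gene, had 6 of 16 higher with apicidin. A region of Bcl2, the antiapoptotic gene, had 0.77 ± 0.15 with apicidin and 0.68 ± 0.16 with GSI (adjusted p = 0.000342) in the authors' deposited table. Jun, an AP-1 subunit gene, had 1 of 6 lower with apicidin, at -0.77 ± 0.11 in the authors' deposited table.

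The Notch list had 41 far distal regions in 5 genes, with 4 higher (9.76%) and 11 lower (26.8%) with apicidin and 0 higher and 4 lower (33.3%) of 12 tested with GSI. Over all far distal regions, 11.6% were lower with apicidin and 10.1% of those tested with GSI. Hey1 gave 6 of the 11 and 3 of the 4. Its region 119 kb from the TSS had -1.49 ± 0.20 with apicidin (adjusted p = 5.97e-12) and -1.18 ± 0.21 with GSI (adjusted p = 5.8e-07) in the authors' deposited table. Maml3, a Mastermind coactivator gene, had 4 of 24 lower and 1 higher with apicidin. Both regions of Rbpj itself were higher with apicidin, the weaker of them with a base mean of 18.9. After centring 7 of the 41 were lower with apicidin, and after subtraction of a trend over base mean GSI gave 1 higher and 3 lower.

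Of the remaining lists, cytokine receptor and Stat genes had 13 of 90 regions higher (14.4%) and 5 lower (5.56%) with apicidin, and 1 higher and 1 lower of 40 tested with GSI. Their share higher with apicidin was near the 11.9% of all far distal regions. A region 94.4 kb from Jak1, a kinase that serves many cytokine receptors, had 1.06 ± 0.13 with apicidin (adjusted p = 1.67e-14) and 0.61 ± 0.14 with GSI (adjusted p = 0.000162) in the authors' deposited table. A region of Cxcr4, a chemokine receptor gene, had -0.86 ± 0.15 with GSI (adjusted p = 1.99e-07) in the authors' deposited table. T cell receptor and surface genes had 12 of 110 higher (10.9%) and 4 lower (3.64%) with apicidin, and 1 higher (3.23%) and 3 lower (9.68%) of 31 with GSI. The shares higher with apicidin and lower with GSI were near those of all far distal regions, 11.9% and 10.1%. Of deacetylase and acetyltransferase genes, 8 of 49 regions were higher (16.3%) and 3 lower (6.12%) with apicidin, and 3 of 16 higher and 0 lower with GSI. Tbl1xr1, a subunit of the NCoR complex, had 6 of 23 higher with apicidin and 3 of 9 with GSI. Progenitor and leukaemia factors had 3 of 57 higher (5.26%) and 6 lower (10.5%) with apicidin, and 0 higher and 2 lower of 20 with GSI. After centring the first count was 3 and 3.

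A far distal region and the TSS region of its assigned gene were compared where both were present, which held for 6069 regions (60.6%). Of 188 regions lower with GSI whose TSS region was tested, the TSS region was lower for 50 (26.6%) and higher for 4. Of 179 regions higher with GSI, it was higher for 33 (18.4%) and lower for 4. Beside the 1878 regions not called, the TSS region was lower for 10.9% and higher for 8.20%. Of 664 regions lower with apicidin, the TSS region was lower for 44.6% and higher for 8.13%, whereas of 644 regions higher with apicidin it was higher for 23.4% and lower for 27.8%. Beside the 4761 regions not called with apicidin, the TSS region was lower for 37.4% and higher for 18.1%. Regions of 1 gene share a TSS region, so these counts are not independent.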

How the data were processed

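H3K27ac and RBPJ ChIP-seq of Beko cells gave 11 libraries. Bowtie2, FastQC, deepTools and SAMtools and the build mm9 are named in the submitters' processing notes. Region calling, read counting and the DESeq2 version were not given in the sources used here. From these steps the authors deposited 1 table of 56342 regions. For each treatment it holds, per the file headers, a base mean (normalised signal over libraries), a log2 fold change, its SE, a Wald statistic (score), a p-value and an adjusted p-value, and for each region its position, symbol, distance to a TSS and RBPJ overlap. The headers name no control, and DMSO, the control per the labels, was taken as the reference. No values per library were used, so depth is unknown, and p-values measure only the spread between 2 libraries a group, which may be technical.

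Regions were taken by distance, width and RBPJ overlap, and compared by counts of calls at the deposited adjusted p under 0.05 (Python 3.11.15, pandas 2.3.3, NumPy 2.4.6, SciPy 1.17.1). The difference of treatments was divided by the root of the summed squared errors, two-sided, Benjamini-Hochberg over all regions. The shared DMSO libraries were not modelled. This step was tested on simulated data with independent errors for apicidin and GSI, so that test does not cover the shared libraries. Named regions were, per treatment and direction, the 10 largest called changes at a base mean at or above the median of tested regions, 1 per symbol; the 5 largest differences each way; the 10 symbols with the most regions; the 5 stretches with the most calls each way; and in each list up to 4 called regions with the smallest p. The regions, the 12 gene lists and the tests were chosen with earlier results of these data known. Gene order came from RefSeq (GRCm38), used for names and neighbours only, and all 549 symbols looked up were matched. Motifs were not searched and no region sequence is shown, since no mm9 genome was used here. Alternatives changed the threshold, fold, distance, width, base mean, centring, trend, stretch gap and contigs named random. Some regions that these rules name are not reported here.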

Additional observations from a re-analysis of the deposited data

How the results depend on the processing

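The values are shares of far distal regions or medians of their log2 fold change. With apicidin the share higher, 11.9%, was 5.33% at a log2 fold change of at least 1 and 21.3% among regions tested for GSI, and the share lower, 11.6%, was 4.22% and 21.8%. The apicidin median of 0.02 was -0.0279 among regions tested for GSI, -0.0270 at a base mean at or above the median of all regions, 0.0648 over 100 kb, 0.121 after centring and -0.00919 after subtraction of the trend. With GSI, 0.99% were higher and 1.10% lower at a log2 fold change of at least 1, 6.41% were lower at an adjusted p under 0.01, and the median over 100 kb was 0.0183. The difference of treatments was positive for 1.81% and negative for 1.81% at an adjusted p under 0.01. At a base mean at or above the median of tested regions, 12.7% were lower with GSI at 50 to 250 kb from RBPJ and 13.3% beyond 250 kb, against 25.5% within 10 kb. Over 200 kb from a TSS, 27.8% were higher and 14.1% lower with apicidin at the upper base means, and 11.8% were lower in symbols with under 10 regions; these alternatives were chosen after seeing the data. No called value of a named region changed sign after centring or subtraction of the trend. Values that were not called were not checked for sign. Calls were lost for 1 apicidin value each of Etv6, Hey1 and Cxcr4 under one or both of these, and for 1 GSI value of Hey1, and 1 Rbfox3 region gained one. No paired analysis was possible because no values per library were used, and leaving out a library was not run for the same reason.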

Other observations

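Far distal regions of lists for other cell types were few. B-lineage and erythroid lists had 0 regions, the myeloid list had 3, all of Irf8 (1 lower with apicidin), and the fibroblast and epithelial list had 5 (1 higher and 1 lower with apicidin, 0 of 2 tested called with GSI). The neuronal list had 4, all assigned to Rbfox3, a neuronal splicing factor gene with no acetylated region over its TSS in these cells. Of these 4, 2 were higher with apicidin, and all 3 tested were higher with GSI; the strongest change was 1.40 ± 0.19 with apicidin and 1.37 ± 0.19 with GSI in the authors' deposited table. The far distal regions lay at a median gap of 411 kb from the nearest RBPJ-overlapping region, against 240 kb for regions 10 to 50 kb from a TSS. A total of 42 lay on contigs named random. The share called was highest among wide regions: of the 1209 far distal regions 2000 bp or wider, 31.5% were higher and 25.1% lower with apicidin, and 17.0% and 16.9% with GSI. Of the 4809 regions under 500 bp, 4.33% were higher and 4.78% lower with apicidin, and 19 were tested for GSI.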
